A study of Mus musculus with 249 samples.

Results

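The comparison set 62 brains with the lowest signal for Paip1, which encodes poly(A)-binding protein-interacting protein 1, against the 62 brains with the highest, out of 249 arrays in the series. The animals were chosen by a measured value: Paip1 was the mean of its 2 probes, animal 144 was left out, and all animals in between are called the middle group. All animals were F2 offspring of C57BL/6J and C3H/HeJ parents, both strains on an ApoE null background, so low, middle and high animals alike lack functional ApoE. The whole cross was fed a Western diet that began at 8 weeks and ended at 24 weeks of age, and brain RNA was labelled with Cy3 and hybridised with a Cy5-labelled pool of RNA from the samples. Sex, genotype, litter and array batch are not given for single animals, so groups can be described only by the transcript that chose them. Values are log2 ratios of animal to pool, where 1 is a factor of 2. The number of animals limits the precision, and p-values set a difference between groups against the spread between animals. With 1 array per animal, that spread cannot be separated from the variation between arrays.

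Paip1 protein binds the poly(A)-binding protein on the tail of an mRNA and initiation factors at its cap, and promotes translation. Its gene lies near the distal end of chromosome 13 beside Nnt, the gene of an inner mitochondrial membrane enzyme that makes NADPH from NADH with the energy of the proton gradient. The C57BL/6J strain is known to carry a deletion within Nnt. In an F2 intercross each locus is inherited as either parental form or both, and genes near each other on a chromosome tend to be inherited together.

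In gene order on assembly GRCm38.p6, 413 measured genes lay on chromosome 13 and Paip1 was number 408 of them. Nnt was the measured gene just proximal to it and Tmem267, a predicted transmembrane protein gene, the measured gene just distal. The promoters of Paip1 and Tmem267 are shown because the signals of these neighbours moved in opposite directions between the groups. The sequences are from RefSeq, build GRCm38.p6, from 250 bases before to 50 after the first-listed transcript start, at chr13:119428350-119428649 for Paip1 and chr13:119487836-119488135 for Tmem267, both on the plus strand. Capitals mark GGGCGG, the GC box, on either strand.
Paip1: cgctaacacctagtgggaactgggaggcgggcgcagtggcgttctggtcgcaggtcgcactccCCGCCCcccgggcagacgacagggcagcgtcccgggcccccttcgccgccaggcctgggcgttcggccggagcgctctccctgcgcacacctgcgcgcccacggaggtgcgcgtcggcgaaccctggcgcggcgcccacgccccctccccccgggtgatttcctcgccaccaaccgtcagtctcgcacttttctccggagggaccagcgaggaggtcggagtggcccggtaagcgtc
Tmem267: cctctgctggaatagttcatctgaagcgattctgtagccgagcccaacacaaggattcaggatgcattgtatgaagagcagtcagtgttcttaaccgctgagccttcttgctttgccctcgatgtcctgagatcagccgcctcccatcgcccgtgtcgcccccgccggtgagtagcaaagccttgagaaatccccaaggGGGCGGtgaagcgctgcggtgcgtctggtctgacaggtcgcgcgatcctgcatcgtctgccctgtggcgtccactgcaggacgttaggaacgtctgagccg
Each of these windows held 1 GC box, which occurs in 35.7% of all 32851 promoter windows in the table. The Paip1 window had 38 CG dinucleotides and the Tmem267 window 22, against a median of 7 over all windows. A second listed start of each gene had 4 GC boxes, overlapping matches counted. CCAAT and TATAAA, searched on both strands, were in neither gene's windows. For Nnt no promoter is shown.

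Paip1 ran from -1.95 to -0.26 with a median of -1.26 in the low animals, from -0.26 to 0.28 with a median of 0.015 in the middle animals, and from 0.28 to 0.84 with a median of 0.46 in the high animals. These levels are what the rule selected and are given without a test. At the lower border the last low animal stood at -0.25546 and the first middle animal at -0.255037, and at the upper border the last middle animal stood at 0.276 and the first high animal at 0.281. The borders thus fell within continuous stretches of values.

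The probes of Paip1 behaved differently. Probe 1 (10024402025) fell into separate ranges: 54 animals (21.8%) lay at -1.97 or lower, no animal lay between -1.97 and -0.54, and the medians of the parts differed 6.27-fold. All 54 were in the low group, and the other 8 low animals lay above the gap. Probe 2 (10024414336) showed no such gap, with -0.75 to 0.52 in the low, -0.44 to 0.72 in the middle and -0.21 to 0.92 in the high group. Across the animals of all groups the probes correlated at r = 0.29, a description only. What each probe detects of the Paip1 transcripts is not analysed here.

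**Figure D1:**
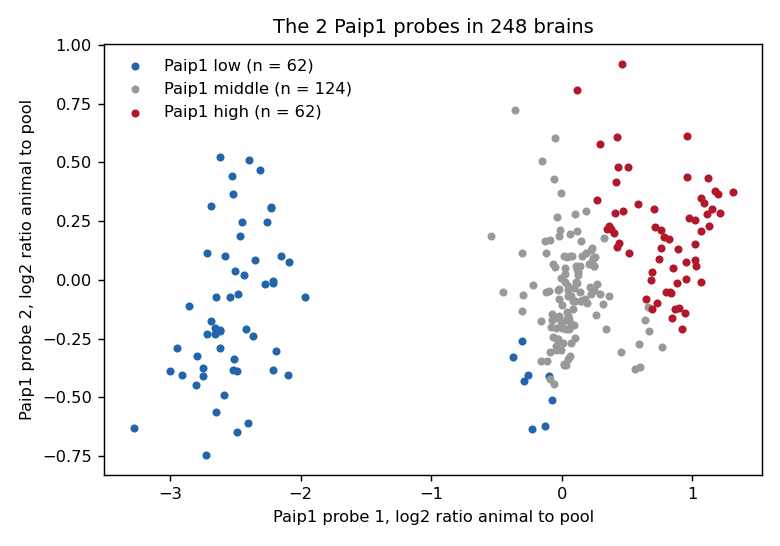
Log2 ratio of animal to pool for Paip1 probe 1 (x axis) and probe 2 (y axis), 1 point per animal, coloured by group (62 low, 62 high, all others middle). The 54 animals on the left, all of the low group, are set apart by probe 1 and vary in probe 2.

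Between low and high animals, a larger share of genes was called on chromosome 13 than elsewhere. Nnt and Tmem267, the neighbours of Paip1, had the smallest p of all genes, followed by a probe named ARHGAP23 that could not be placed. Of the 412 genes of chromosome 13 other than Paip1, 39 (9.47%) were called by limma at a Benjamini-Hochberg adjusted p under 0.05, against 334 of 11095 genes not on it (3.01%) and 373 of all 11507 (3.24%). Of the 39, 18 were higher in the Paip1 high animals (4.37% of 412, against 1.63% of all genes) and 21 lower (5.10%, against 1.61%). At 1.2-fold or more the counts were 9 of 412 (2.18%) and 17 of 11095 (0.153%). The median fold of the 39 was 1.12, so most of the differences were small. In none of the 39 were the low and high groups without overlap.

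Nnt, the transhydrogenase gene next to Paip1, was higher in the Paip1 high animals. Nnt ran from -1.14 to 0.16 with a median of -0.34 in low animals, from -0.46 to 0.41 with a median of 0.039 in middle animals, and from -0.24 to 0.49 with a median of 0.25 in high animals. Of the low animals 49 of 62 lay below every high animal, and 40 of 62 high animals lay above every low one. The difference, high minus low, was 0.53 ± 0.035 (SE, 62 against 62 animals), 1.45-fold (limma, adjusted p = 1.41e-26). In whole brain tissue, fewer cells of a type and less RNA per cell cannot be told apart.

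Tmem267, the measured neighbour on the other side, went the opposite way and by more. Its level ran from -1.45 to 2.05 with a median of 0.69 in low animals, from -1.58 to 1.14 with a median of 0.070 in middle animals, and from -1.70 to 0.71 with a median of -1.06 in high animals. Low animals were high in Tmem267, 53 of 62 above the median of the middle group, and 55 of 62 high animals lay below it, although the ranges overlapped. The difference was -1.45 ± 0.11, or 2.73-fold lower in Paip1 high animals (limma, adjusted p = 9.89e-22).

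Other close neighbours differed little. Of the 15 measured genes within 10 places of Paip1, all but Nnt, Tmem267 and Tcstv3 had an adjusted p above 0.05. Fgf10, a growth factor gene 2 places proximal, differed by 0.012 ± 0.019, and Isl1, a homeobox gene of motor and striatal neurons, by -0.026 ± 0.022. Ccl28, a mucosal chemokine gene 2 places distal, differed by -0.096 ± 0.031 (limma, adjusted p = 0.0596). Tcstv3, at the end of the measured order, was lower in high animals by a small amount, -0.080 ± 0.018 (adjusted p = 0.00505), and was not called with animals grouped by Paip1 probe 1 alone (limma, adjusted p = 0.157). It belongs with Tcstv1 to a group of related genes whose probes may share targets. The remaining neighbours, Arl15, Ndufs4, Fst, Mocs2, Itga2, Pelo, Emb, Tcstv1 and BC147527, had differences from -0.034 to 0.11.

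**Figure D2:**
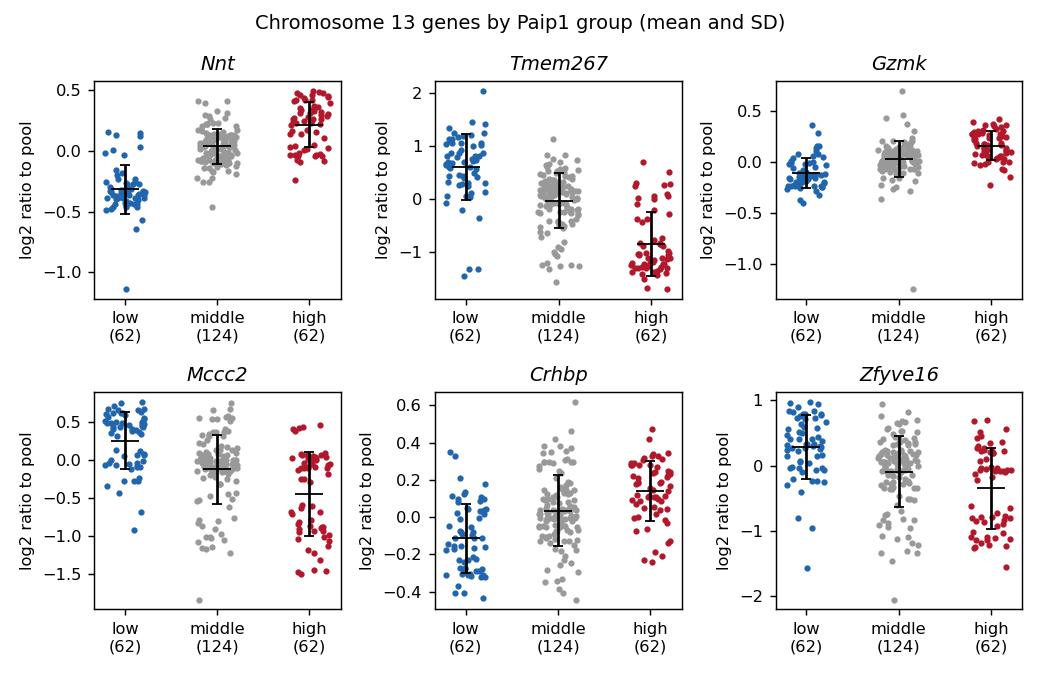
Log2 ratio to pool (y axis) of 6 chromosome 13 genes in the Paip1 low (62), middle (all others) and high (62) animals, 1 point per animal, with the mean and SD as bars. Nnt, Gzmk and Crhbp step up and Tmem267, Mccc2 and Zfyve16 step down from low to high, and the groups overlap in all 6 genes.

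Farther from Paip1, enzymes and regulators with unrelated roles differed in either direction. Mccc2, the beta subunit of the carboxylase that breaks down leucine, 45 places proximal, had a median of 0.40 in low animals (-0.92 to 0.77), -0.048 in middle animals (-1.84 to 0.75) and -0.25 in high animals (-1.50 to 0.46). It was 1.63-fold lower in high animals (-0.70 ± 0.084, limma, adjusted p = 2.20e-10). Of the low animals 25 of 62 lay above every high animal.

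Zfyve16, which encodes the endosomal protein endofin, 82 places proximal, had medians of 0.32 in low (-1.57 to 0.98), 0.037 in middle (-2.05 to 0.94) and -0.090 in high animals (-1.56 to 0.70). Its difference of -0.63 ± 0.098 was 1.55-fold (limma, adjusted p = 3.31e-06), with 15 of 62 low animals above all high ones. Mccc2, Zfyve16 and Tmem267 were the 3 of the 39 called genes with a difference of 1.5-fold or more.

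Gzmk, which encodes a protease of cytotoxic lymphocytes, 15 places proximal, rose with Paip1. Its medians were -0.14 in low animals (-0.40 to 0.36), 0.033 in middle animals (-1.24 to 0.69) and 0.17 in high animals (-0.23 to 0.42). The difference was 0.27 ± 0.026 (SE, 1.21-fold, limma, adjusted p = 4.72e-15), with an SD of 0.15 in low and 0.14 in high animals. Of the low animals 51 of 62 lay below the middle median, and 50 of 62 high animals lay above it.

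Crhbp, the binding protein of corticotropin-releasing hormone, had medians of -0.13 (-0.43 to 0.35), 0.019 (-0.44 to 0.62) and 0.16 (-0.24 to 0.47) from low to high. It was 1.19-fold higher in high animals (0.25 ± 0.031, limma, adjusted p = 4.20e-10). Sgtb, a co-chaperone gene 32 places proximal with 2 probes, had medians of 0.14 (-0.36 to 0.34), -0.0053 (-0.44 to 0.43) and -0.17 (-0.46 to 0.34). It was 1.21-fold lower in high animals (-0.27 ± 0.029, limma, adjusted p = 9.83e-13), and by -0.51 with 1 of its probes alone. In both genes most animals of each group lay on its own side of the middle median, 44 and 49 of 62 for Crhbp and 50 and 52 of 62 for Sgtb.

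Among genes with a role in neurons, Sv2c, a synaptic vesicle glycoprotein gene, rose by 0.24 ± 0.037 (limma, adjusted p = 1.53e-06), while Nln, neurolysin, which cuts neuropeptides, fell by 0.21 on the log2 scale (adjusted p = 0.000784). Of the cell cycle and transcription genes, Ccnh, cyclin H of the CDK-activating kinase, was higher in high animals (0.23 ± 0.038, limma, adjusted p = 2.40e-05). The zinc finger genes Zfp273 (0.15 ± 0.028, or 0.39 with 1 of its probes alone) and Zfp369 (0.27 ± 0.059) were higher too, and Brd9, a bromodomain subunit of a chromatin remodelling complex, was lower (-0.21 ± 0.045, adjusted p = 0.0030). In metabolism, the gluconeogenic enzyme gene Fbp1 was higher (0.15 ± 0.033, adjusted p = 0.00466) and Ndufaf2, an assembly factor of respiratory complex I, lower (-0.12 ± 0.027, adjusted p = 0.00477). Cmya5, a muscle protein gene, was 1.21-fold lower. Atp6ap1l (0.18) and 1700001L19Rik (0.17) were higher in high animals, and Cd180, a receptor gene of B cells, lower (-0.074). With animals grouped by Paip1 probe 1 alone, Zfp369 (0.21, limma, adjusted p = 0.128), Fbp1 (0.12, adjusted p = 0.185), Atp6ap1l (0.084, adjusted p = 0.455), 1700001L19Rik (0.088, adjusted p = 0.401) and Cd180 (-0.073, adjusted p = 0.146) were not called. 1700001L19Rik was also not called with 5 principal components as covariates (0.075, adjusted p = 0.213).

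Called genes were more frequent toward the distal end. In consecutive sets of 42 genes from the proximal end, 2, 1, 2, 1, 2 and 2 genes were called in the first 6 sets (2.38% to 4.76%), close to the 3.01% of genes not on chromosome 13. The next sets held 5 (11.9%), 9 (21.4%) and 9 (21.4%), and the last set, of 34 genes, 6 (17.6%). Within 100 places of Paip1, 22 of 105 genes were called, and beyond 200 places 8 of 207. The farthest called gene, Gng4, lay 377 places away at an adjusted p of 0.0491 by limma. Prl, the pituitary hormone gene 309 places away, differed by 0.61 ± 0.43 and was not called (adjusted p = 0.425).

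**Figure D3:**
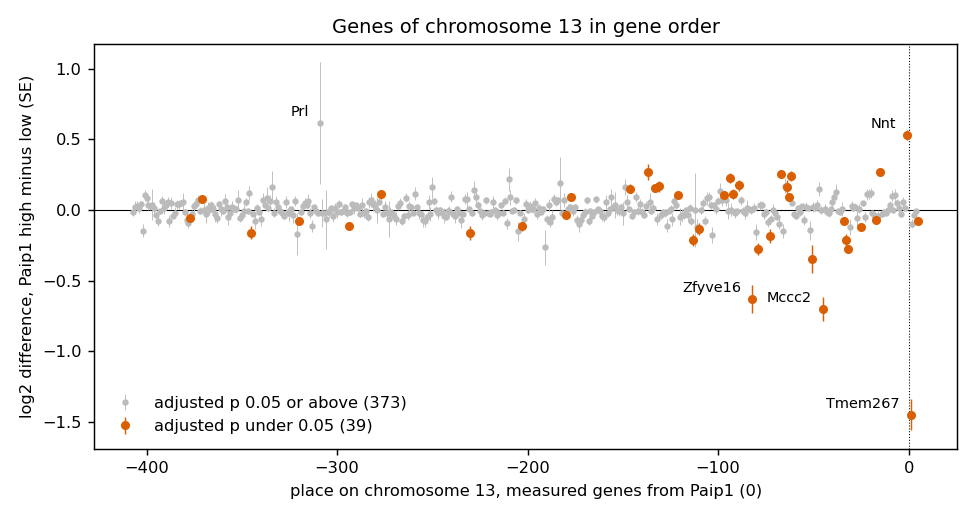
Log2 difference, Paip1 high minus low, with its SE (y axis) for 412 genes of chromosome 13 by their place in the order of measured genes from Paip1 at 0 (x axis). The 39 called genes, in orange, crowd toward Paip1 and lie on both sides of 0, with Tmem267 lowest at -1.45 and Nnt at 0.53.

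By pattern over the animals of all groups, the genes of chromosome 13 most like Paip1 by absolute Pearson r were Nnt (0.77), Tmem267 (-0.67), Gzmk (0.52), Mccc2 (-0.48) and Crhbp (0.45). These are descriptions over arrays that share 1 pool, and Paip1 chose the groups. The neighbours Nnt and Tmem267 correlated at -0.61 over all animals but at -0.067 within the middle animals, -0.13 within the low and -0.65 within the high animals.

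The middle animals, which the comparison of low with high did not use, lay between. In 36 of the 39 called genes of chromosome 13 their mean fell between those of the low and high groups, and the exceptions were Nqo2, Neurog1 and Mrpl36. This count is not a test, because Paip1 ordered the groups and the genes were called for their difference between low and high. No gene of chromosome 13 had a middle mean that departed from the midpoint of low and high at an adjusted p under 0.05 in limma, while 45 of 412 (10.9%) had an unadjusted p under 0.05, against 8.19% of all genes. The middle mean of Nnt lay 0.088 ± 0.022 above the midpoint (limma, adjusted p = 0.0847). Over all genes 3 of 11507 (0.0261%) departed, TRMT5, Ranbp17 and Glg1, each at an adjusted p of 0.0497. These names were taken after their values were seen.

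Within the middle group the slope on Paip1 told another pattern. There 50 of 412 genes of chromosome 13 were called by limma (12.1%), close to the 1378 of all 11507 genes (12%). Nnt did not pass (0.066 ± 0.098 per unit of Paip1, adjusted p = 0.711), nor did Tmem267 (-0.47 ± 0.35, adjusted p = 0.395). Mccc2 (-0.94 ± 0.29, adjusted p = 0.0227) and Sgtb (-0.42 ± 0.12, adjusted p = 0.0150) did. So did close neighbours of Paip1 that were not called between low and high. These were Tcstv1 (-0.25 ± 0.068, limma, adjusted p = 0.00881), Isl1 (-0.34 ± 0.097, adjusted p = 0.0142) and Mocs2 (0.50 ± 0.16, adjusted p = 0.0221). The share on the chromosome did not exceed the background.

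Grouping by a probe of Paip1 alone, a setting added after the data were seen, gave different counts. With the 62 lowest and 62 highest animals of probe 1, which shared 56 low and 54 high animals with the rule, 16 of 412 genes on chromosome 13 (3.88%) and 4 of 11095 genes not on it (0.0361%) were called by limma. Of the 16, 14 were among the 39 and 14 lay within 100 places of Paip1. The additions were Map1b, a microtubule protein gene of neurons (0.24, adjusted p = 0.0069), and the thrombin receptor gene F2r (0.23, adjusted p = 0.0333). Nnt differed by 0.61, Tmem267 by -1.53 and Mccc2 by -0.72. Probe 2, which that grouping did not use, was 1.17-fold higher in the animals high by probe 1 (0.22 ± 0.052, limma, adjusted p = 0.0218). The 6.27-fold step of probe 1 is another measure, a ratio of medians across its gap over the animals of all groups. In the animals high by probe 2, probe 1 was 2.00-fold higher than in those low by probe 2 (1.00 ± 0.23, limma, adjusted p = 0.000123).

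With probe 2 alone choosing the animals, 196 of 412 genes on chromosome 13 (47.6%) and 5295 of 11095 others (47.7%) were called, so the chromosome did not stand out. Nnt was not called in that grouping (0.045, limma, adjusted p = 0.423), nor were Zfyve16 (-0.038, adjusted p = 0.779), Cmya5 (-0.012, adjusted p = 0.851), Brd9 (-0.0088, adjusted p = 0.898), Nln (-0.095, adjusted p = 0.0851), Cd180 and Tcstv3. Tmem267 (-0.54, adjusted p = 0.000595), Mccc2 (-0.34, adjusted p = 0.000445) and Gzmk (0.090, adjusted p = 0.0178) were called at smaller sizes, and Ndufaf2 with the opposite sign (0.072, adjusted p = 0.0400). Crhbp, Sgtb, Sv2c, Zfp273 and Zfp369 were also called at smaller sizes. Other named genes of chromosome 13 were called at larger sizes than by the rule. These were Ccnh (0.25), Atp6ap1l (0.32), 1700001L19Rik (0.33), Fbp1 (0.19), Sox4 (-0.23) and Arsb (-0.28). Probe 2 moved with the third principal component of the genes on other chromosomes, which held 5.93% of their variance. Over the animals of all groups r was -0.73 for probe 2 and -0.11 for probe 1. In units of its SD the component averaged 0.19 in low, 0.14 in middle and -0.47 in high animals, and its r with animal number was -0.32. What the component represents was not tested. With 5 components as covariates, 38 genes on chromosome 13 (9.22%) and 130 others (1.17%) were called. Of the 38, 27 lay within 100 places of Paip1 and 26 were among the 39 called without covariates. Of the 130, 62 were among the 334 called without covariates. Ccl28 was called with the components as covariates (limma, adjusted p = 0.00222).

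**Figure D4:**
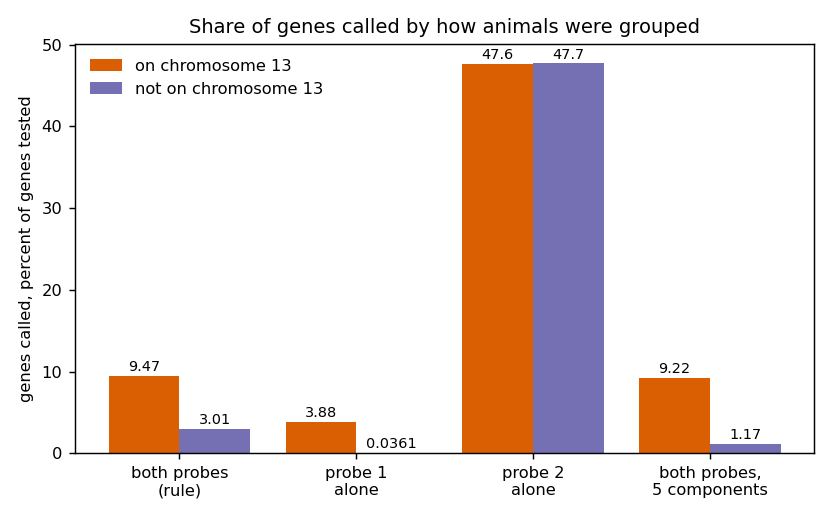
Percent of genes called at an adjusted p under 0.05 (y axis) on chromosome 13 (orange, 412 genes) and not on it (purple, 11095 genes) for animals grouped by both Paip1 probes, by probe 1, by probe 2, and by both with 5 principal components as covariates. The shares are 9.47 and 3.01, 3.88 and 0.0361, 47.6 and 47.7, and 9.22 and 1.17.

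The 8 low animals that probe 1 did not set apart differed from the other 54 in the neighbours of Paip1. Nnt had a median of 0.075 (-0.030 to 0.16) in the 8 and -0.36 (-1.14 to -0.16) in the 54, without overlap. Tmem267 had a median of 0.052 (-1.45 to 0.43) in the 8 and 0.75 (-1.33 to 2.05) in the 54. Farther away, Gzmk had a median of 0.066 in the 8 and -0.15 in the 54. Mccc2 had a median of -0.057 in the 8 and 0.41 in the 54, with overlapping ranges in both genes. For Sgtb the medians were closer, 0.18 in the 8 and 0.13 in the 54. These values are given without a test, as the split was seen in the data.

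A probe whose gene could not be placed on the mouse assembly followed Tmem267. It is named ARHGAP23 in the platform annotation, in capitals, with a gene identifier that is not in the mouse table. The levels ran from -1.44 to 1.10 with a median of 0.61 in low animals, from -1.15 to 0.89 with a median of 0.065 in middle animals, and from -1.32 to 0.56 with a median of -0.75 in high animals. Of the low animals 35 of 62 lay above every high animal, and the difference was -1.05 ± 0.087, or 2.07-fold (limma, adjusted p = 3.06e-19). It was the 1 called gene not on chromosome 13 with a difference of 1.5-fold or more. Its r with Tmem267 was 0.90 over all groups, 0.82 within low, 0.79 within middle and 0.92 within high animals. In the 54 low animals set apart by probe 1 its median was 0.63 and in the other 8 it was -0.20.

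**Figure D5:**
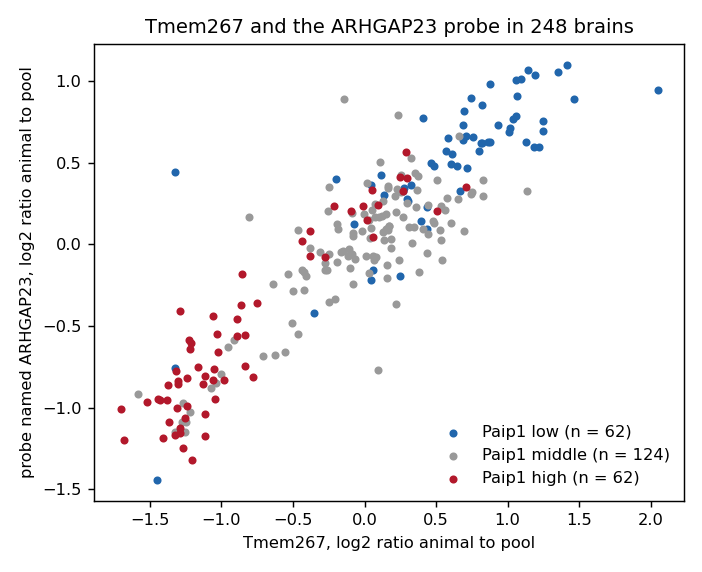
Log2 ratio to pool of Tmem267 (x axis) and of the probe named ARHGAP23 (y axis), 1 point per animal, coloured by Paip1 group (62 low, 62 high, all others middle). The points follow a line in each group (r from 0.79 to 0.92), with most low animals at the upper right and most high animals at the lower left.

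In all 616 tested genes were not placed, 608 of them named in capitals, and 26 (4.22%) were called. They count as not on chromosome 13 here. For 499 the mouse table has a gene of the same letters, which was not used to place them because the letters alone do not identify the probe's target. For ARHGAP23 that gene is on chromosome 11, for PIGX on 16 and for NFKBIA on 12. ARSK (-0.23 ± 0.043, limma, adjusted p = 0.000498) was the 1 called gene among the 13 whose letters match a gene on chromosome 13.

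Genes of other chromosomes differed by small amounts. Of 10479 placed there, 308 (2.94%) were called, 153 higher and 155 lower in Paip1 high animals, and the share per chromosome ran from 1.64% to 4.09%, leaving out the Y chromosome, with 0 of 8 genes called. The median fold of all 334 called genes not on chromosome 13 was 1.08. The smallest p after ARHGAP23 belonged to PIGX, named for a subunit of a mannosyltransferase that builds glycolipid anchors (0.19 ± 0.032, limma, adjusted p = 1.98e-05), followed by the helicase gene Ddx39 (0.12 ± 0.022, adjusted p = 0.000372). Tprn (-0.15 ± 0.028), whose protein lies at the base of hair cell stereocilia, and Prdm2 (-0.084), a zinc finger methyltransferase gene, were lower in high animals. Prdx4 (0.15), the peroxiredoxin of the endoplasmic reticulum, Cltrn (0.16), Rab38 (0.12), a GTPase gene of melanosome transport, and Oxnad1 (0.12) were higher. With ARSK, described above, these genes complete the 10 with the smallest p. Those with the largest absolute r with Paip1 over all groups were ARHGAP23 (-0.69), Tprn (-0.31), ARSK (-0.31), PIGX (0.30) and NFKBIA (-0.29). With animals grouped by probe 1 alone, ARHGAP23, ARSK, Tprn and NFKBIA were the 4 that passed.

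In the lists of genes that act with Paip1, 1 gene of translation was called. Of 19 measured genes of poly(A) binding and cap-dependent initiation, 1 was called, against 3.24% of all genes. It was Larp1, lower in high animals, a regulator of the translation of ribosomal protein mRNAs (-0.14 ± 0.033, limma, adjusted p = 0.00944), and the median difference was -0.035, against -0.0046 over all genes. It did not pass with animals grouped by probe 1 (adjusted p = 0.118). None of 17 eIF2 and eIF3 subunits (median 0.0097), 18 genes of deadenylation and decapping (-0.014) or 23 cytosolic ribosomal protein genes (-0.012) was called by limma, and 5, 2 and 1 of them had an unadjusted p under 0.05, as had 6 of the 19 initiation genes and 20.7% of all genes. Among 15 genes of mitochondrial NADPH and peroxide handling Nnt alone was called, with a list median of 0.033, and among 11 of mevalonate and ketone body steps none was (-0.028, with 1 at an unadjusted p under 0.05). Hmgcs1, though near Paip1 in the gene order, is not analysed here.

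Lists of brain cells, regions and responses were measured to see what else moved with the groups. Of 25 lists with measured members, those of translation and metabolism above included, 6 held a called gene. Each of the 6 held 1, except 2 in the brain genes of chromosome 13. The 25 lists held 268 measured genes, and 3.24% of all genes were called. The share of lists is not comparable with that share of genes. The median of the 9 measured neuron genes on an array ran from -0.17 to 0.22 in low and from -0.18 to 0.23 in high animals; as the pool was made from the same brains, ratios near 0 do not show absolute levels of these markers. No gene was called in the lists of neurons (median difference -0.0028), astrocytes (-0.0076, 8 genes), oligodendrocytes (0.0026, 8), microglia (-0.026, 7), endothelium and pericytes (-0.0036, 10), choroid plexus (0.024, 7), red cells (-0.026, 5), cerebellum (0.0058, 8), olfactory bulb (-0.13, 8), striatum (-0.045, 8), lung (-0.055, 7) or immediate early genes (-0.026, 11). In each of 3 other lists 1 gene was called, against 3.24% of all genes. Lum, a matrix proteoglycan gene, was 1 of 9 of meninges with a list median of -0.043 (0.17 ± 0.036, limma, adjusted p = 0.00312). Per1 was 1 of 9 of the glucocorticoid response with a list median of -0.020 (-0.13 ± 0.034, limma, adjusted p = 0.0139). Isg15 was 1 of 10 of the interferon response with a list median of 0.093 (-0.15 ± 0.047, limma, adjusted p = 0.0482). None of these 3 passed with animals grouped by probe 1 (limma, adjusted p from 0.174 to 0.238). Isg15 went against its list, where every other gene but Ifit1 (-0.018) was higher in high animals, up to 0.15 in Bst2. In the meninges, glucocorticoid and interferon lists 3 of 9, 2 of 9 and 5 of 10 genes had an unadjusted p under 0.05 by limma, against 20.7% of all genes. Of 19 brain genes of chromosome 13, with a median of -0.022, 2 were called, against 9.47% of the chromosome, and lower in high animals, the transcription factor gene Sox4 (-0.11 ± 0.028, adjusted p = 0.0106) and Arsb, a lysosomal sulfatase gene (-0.18 ± 0.049, limma, adjusted p = 0.0234). Neither passed with animals grouped by probe 1 (adjusted p = 0.238 and 0.403) or with 5 components as covariates, where Sox4 differed by -0.026 (adjusted p = 0.655) and Arsb by -0.062 (adjusted p = 0.364). None of 15 prolactin family genes was called (-0.015, none at an unadjusted p under 0.05 by limma). Over all 25 lists 46 of 270 entries (17.0%) had an unadjusted p under 0.05, against 20.7% of all genes, and no histone of chromosome 13 was matched by a listed name.

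No difference of pituitary or Y-linked transcripts between the groups passed. The 7 pituitary genes had a median difference of 0.31 and the 2 Y-linked genes of -0.50, with none called and none at an unadjusted p under 0.05 by limma. Eif2s3y, a Y-linked initiation factor gene, was in its upper range in 34 of the low, 59 of the middle and 28 of the high animals, and differed by -0.63 ± 0.56 (limma, adjusted p = 0.551). With Eif2s3y and the pituitary, cerebellum and olfactory bulb scores as covariates, 27 genes of chromosome 13 (6.55%) and 109 others (0.982%) were called, 26 and 107 of them shared with the fit without covariates.

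Animal number, the one order the labels give, was alike in the low and high groups, with medians of 207.5 and 205.5. The median of the middle animals was lower, at 178. Among animals of lower number alone Nnt differed by 0.61 and Tmem267 by -1.51, and among those of higher number by 0.47 and -1.40. No gene had a difference between low and high that itself differed between the parts (limma interaction, 0 of 11507 at an adjusted p under 0.05, and 413 at an unadjusted p under 0.05, 3.59%).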

How the data were processed

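Per the labels, Cy3 carried the animal and Cy5 the pool. The authors deposited log10 ratios for 23388 probes on 249 arrays. How background and dyes were corrected is not given in the sources used here. Base and direction were read from the limits of exactly -2 and 2 and from Y-linked Eif2s3y, whose upper mean of 0.284 is close to 0.301, a factor of 2. Of all pairs of arrays 6 correlated under -0.3 (lowest r -0.354, median 0.307), and the stated dyes fixed the direction. Array medians lay between -0.00627 and 0.0250, and whether the authors centred the arrays is unknown. The deposited ratios were converted to log2. A gene was the mean of probes with that symbol alone, measured on at least 90% of arrays, with gaps of 1 probe filled by its mean and no value where all probes were missing, giving 11508 genes, 10892 of them placed through GRCm38.p6, used for order only. Animal 144 was left out. The title of 1 sample disagrees with its source name on the animal's number, and the latter was taken. Groups were compared with limma 3.58.1 in R 4.3.3 (lmFit, eBayes), Benjamini-Hochberg adjusted over all genes but Paip1, after testing on simulated data. Members, lists and tests were chosen with earlier results of these data known. Named genes were the 10 measured genes on each side of Paip1 (5 distally), the called genes of smallest p (20 on chromosome 13, 10 off it), Nnt, Eif2s3y, Prl and Hmgcs1 (not analysed here), up to 4 called members of a list, and 5 genes on and 5 off chromosome 13 by r with Paip1.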

Additional observations from a re-analysis of the deposited data

How the results depend on the processing

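The counts of called genes depended on how many animals were set against each other and on which probe chose them. On chromosome 13, 39 of 412 genes became 10 in animals of lower number and 12 in those of higher number. The count was 97 with 31 against 31 animals and 105 with all animals divided at the median of Paip1. It was 71 with robust eBayes and array weights, 16 by probe 1 alone, 196 by probe 2 alone, and 9 at 1.2-fold or more. Elsewhere 334 of 11095 genes became 6, 21, 2016, 2340, 836, 4, 5295 and 17 in the same order. That count was 214 with a slope over the animals of all groups and 109 with covariates of sex-linked and regional transcripts. It was 616 without the 12 arrays of largest SD and 130 with 5 principal components. With 31 against 31 animals, and with division at the median, the shares on and off chromosome 13 lay nearer each other than 9.47% and 3.01%. The groupings by probe and the components were chosen after seeing the data. The causes of these changes were not tested. The parts by number also held fewer animals than the full groups. Fits with number as a block, other centring, quantile normalization, no filter, no filling, animal 144 kept and 1 probe per gene stayed within 1.5 times for both counts, though with 1 probe per gene Sgtb went to -0.51, Zfp273 to 0.39 and NFKBIA to -0.41. By probe 1 alone 8 of the 22 named called genes of chromosome 13 and 11 of the 15 elsewhere lost their call, by components 3 and 6. Of the 22 named called genes of chromosome 13 none changed sign except Ndufaf2, 0.072 by probe 2 alone. Genes not called changed sign: with 31 against 31, Arl15 (-0.033), Fst (-0.033) and Pelo (-0.025); divided at the median, Fst (-0.025), Pelo (-0.0060), Fgf10 (-0.013) and BC147527 (0.015); by slope, Fst (-0.015) and BC147527 (0.0063); by probe 1, Ndufs4 (-0.0039), Fst (-0.0037), Fgf10 (-0.0061) and BC147527 (0.011); by probe 2, Arl15 (-0.046), Fst (-0.055), Pelo (-0.064) and Ccl28 (0.0013); with components, Isl1 (0.0022), BC147527 (0.0021) and Eif2s3y (0.047); with the block, Fst (-0.0013); in higher numbers, Fst (-0.00069) and Eif2s3y (0.084); and Pelo with quantile normalization (-0.0012), without 12 arrays (-0.0056) and with weights (-0.0089), where BC147527 was 0.0068. No paired analysis was possible because the labels give 1 group of animals. Signal over background is unknown.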
